A study of Bos taurus and Bubalus bubalis with 9 samples.

Results

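BNC2 and NTRK2 are hosts of circular RNAs (circRNAs) on cattle chromosome 8 that had been picked as leading hosts on the adipose side of cattle adipose tissue against cattle muscle. Every row with either symbol was taken from the buffalo and the cattle circRNA tables, which gave 17 of 29236 rows. The buffalo table held 1 row of BNC2 and 7 of NTRK2 among 10701 rows, and the cattle table held 1 of BNC2 and 8 of NTRK2 among 18535. These rows stand for 10 different back-splice junctions, 1 of BNC2 and 9 of NTRK2. The 4 transcripts of both genes among the 19917 of the buffalo mRNA table were also taken. Because the hosts were chosen on the cattle tissue contrast, their values in that contrast are a description and were not tested. The label was drawn from this contrast, so values that match it give it no support. In NTRK2, the 3 adipose libraries all lay above the 3 muscle libraries, as in 8.27% of the 1837 hosts tested. BNC2 did not match the label, since its tissues overlapped and its higher mean RPM in adipose tissue came from 1 library.

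The study compared Xinyang buffalo, a breed with little intramuscular fat, with Nanyang cattle, which deposit more of it, using RNA sequencing of muscle and fat. The 9 libraries used here came from buffalo muscle (labelled low IMF), cattle muscle and cattle fat (both labelled high IMF), with 3 per group. Muscle was the longissimus dorsi, and adipose tissue was subcutaneous fat of the back. All animals had been castrated at 6 months, were fattened from 18 months and were slaughtered at 30 months. There were 3 animals per species, so the cattle muscle and cattle adipose libraries came from the same 3 cattle, but no source used here says whether equal library numbers mean the same animal. With 1 breed per species from 1 farm each, species, breed and farm cannot be told apart. In these bulk samples, fewer cells of a type and less RNA per cell cannot be told apart either.

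A circRNA forms when a splice donor joins an acceptor that lies upstream of it, so that 1 or more exons close into a ring without free ends. It is counted by reads that cross this back-splice junction, since all other reads of the ring look like those of the linear transcript. BNC2 encodes basonuclin-2, a zinc finger protein of the nucleus. NTRK2 encodes TrkB, a receptor tyrosine kinase of the cell surface that binds brain-derived neurotrophic factor and signals through phospholipase C gamma, PI3 kinase with AKT, and the RAS-MAP kinase cascade.

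The circRNA tables give RPM, junction reads scaled to the size of the library. Each value was a whole multiple of a step taken as 1 read, so junction reads could be recovered. A library held between 4472 and 6122 junction reads in buffalo muscle, between 15440 and 27141 in cattle muscle, and between 12042 and 21053 in cattle adipose tissue. Buffalo reads had been aligned to the cattle genome, and the sum of RPM over all junctions was 74.5 to 96.1 in buffalo muscle against 408 to 642 in cattle muscle. For this reason, levels are also given per 10000 junction reads of the same library. The tissue labels were checked with 21 genes of muscle fibres. Their summed junction RPM was 24.5 to 33.6 in cattle muscle and 11.9 to 13.8 in buffalo muscle. In adipose tissue it was 0 in 2 libraries and 0.0269, a single read of nebulin NEB, in the other. Of 28 adipocyte marker genes, 10 had any junction read. Their summed RPM was 1.19 to 2.26 in cattle adipose tissue and 0.280 to 0.544 in cattle muscle, while ADIPOQ and LEP, which encode the fat cell hormones adiponectin and leptin, had no junction read in any of the 9 libraries.

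BNC2 had a single junction, and it was the same in both species. It joined chr8:27974923-27976892 of UMD3.1 on the plus strand, was annotated as exonic in gene ENSBTAG00000003669, and spanned 1970 bp. This span is short, since 12.2% of the exonic junctions of cattle and 14.2% of those of buffalo were shorter, and the median span was 10292 bp in cattle and 9124.5 bp in buffalo. It was listed with both transcripts of the gene, ENSBTAT00000004780 and ENSBTAT00000057275. Over the 6 cattle libraries, the junction had 986 reads. Of the 5 cattle hosts with at least as many junction reads, BNC2 was the only host whose reads fell into 1 junction. The 11 hosts within 2-fold of its reads, BNC2 included, had a median of 15 junctions, and the leading junction of these hosts held a median of 88.1% of their reads. In many other hosts of similar output, therefore, most reads also fell into 1 junction, but all of these others had minor junctions beside it.

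In cattle adipose tissue, BNC2 had 99, 383 and 111 reads in libraries 1 to 3, which is 2.69, 10.3 and 2.86 RPM. In cattle muscle it had 132, 108 and 153 reads, which is 3.49, 2.56 and 4.28 RPM. Adipose 2 was far above all other libraries, and the other 2 adipose libraries lay within the range of muscle. The means were 5.28 ± 4.34 RPM in adipose tissue and 3.44 ± 0.865 RPM in muscle (SD, n = 3 each), a ratio of 1.53. Without adipose 2 the adipose mean was 2.77 RPM and the ratio was 0.805, so the direction turned. Among libraries of equal number, adipose was above muscle in number 2 only.

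**Figure D1:**
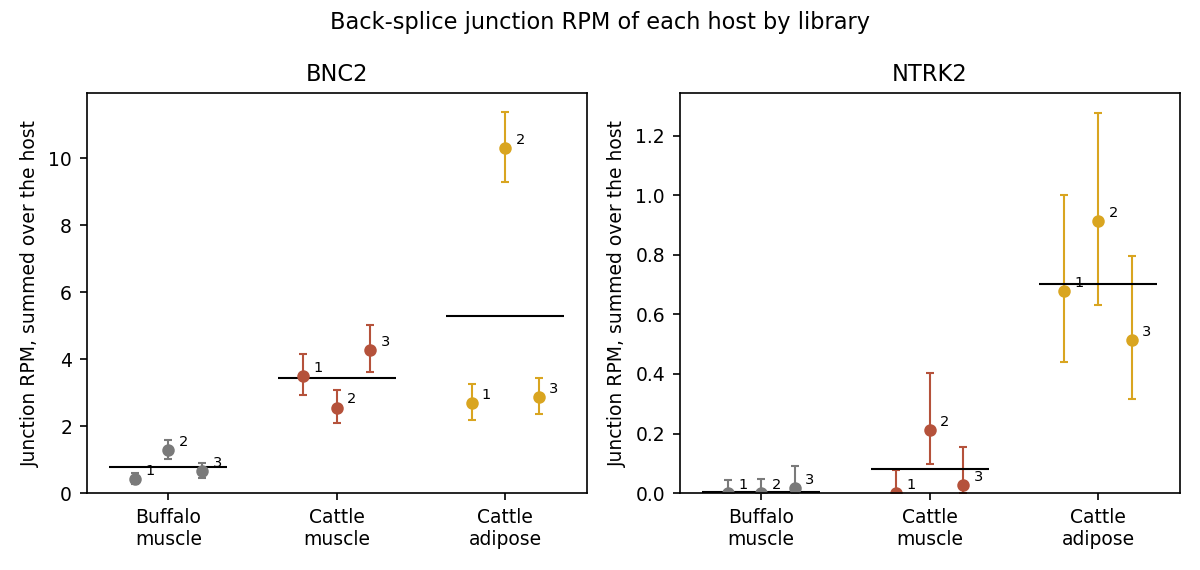
Back-splice junction RPM of BNC2 (left) and NTRK2 (right) in each library, with library numbers beside the points. Bars are exact 95% Poisson intervals of the reads, ending at 3 reads where a library had none, and lines are group means. BNC2 stands at 10.3 RPM in adipose 2 and between 2.56 and 4.28 RPM in the other 5 cattle libraries, while NTRK2 is above 0.5 RPM in adipose tissue alone.

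Relative to all junction reads of the library, BNC2 held 82.2, 182 and 78.4 per 10000 in adipose tissue and 85.5, 39.8 and 69.9 in cattle muscle. Adipose 2 was again the highest library and muscle 2 the lowest, and the groups overlapped. The mean was 114 ± 58.7 in adipose tissue and 65.0 ± 23.2 in muscle, a ratio of 1.76 that fell to 1.23 without adipose 2. On this scale the direction did not turn. On the log2(RPM + 1) scale the difference between adipose tissue and muscle was 0.31, and −0.22 without adipose 2.

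Adipose 2 differed from the other adipose libraries beyond BNC2. Its 21053 junction reads compare with 12042 and 14160. Of the 41 hosts with at least 100 reads in adipose tissue, 85.4% had their highest adipose RPM in this library, and the median ratio of adipose 2 to the mean of the others was 1.69. For BNC2 this ratio was 3.71, the third highest of the 41. Per 10000 junction reads, the median ratio was 1.04 and that of BNC2 was 2.27, again at rank 3. Summed RPM of marker lists was highest in this adipose library as well. The 14 of 22 fibroblast and progenitor genes with any read summed to 1.34 RPM in adipose 2 against 0.624 and 0.592 in the others. Vascular genes, 10 of 14 with reads, summed to 1.02 RPM against 0.434 and 0.360, and adipocyte genes to 2.26 against 1.19 and 1.62. Per 10000 junction reads, the fibroblast sums were 19.1, 23.7 and 16.2 and the vascular sums 13.3, 18.0 and 9.89 in adipose 1 to 3, but the adipocyte sums were 36.5, 39.9 and 44.5, highest in adipose 3. Single genes carried much of the fibroblast and vascular sums, since 19 of the 50 fibroblast reads in adipose 2 were of the collagen chain COL5A1 and 16 of the 38 vascular reads were of the smooth muscle myosin MYH11. The defining fibroblast genes DCN, LUM and PDGFRB had no junction read in any library. The part of cell makeup and depth in the BNC2 value was not tested.

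In cattle adipose tissue BNC2 was at the top of the list of hosts, at rank 2, 1 and 3 of 2134 to 2744 hosts detected per library. In cattle muscle it was at rank 8, 23 and 8 of 2386 to 2905.

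**Figure D2:**
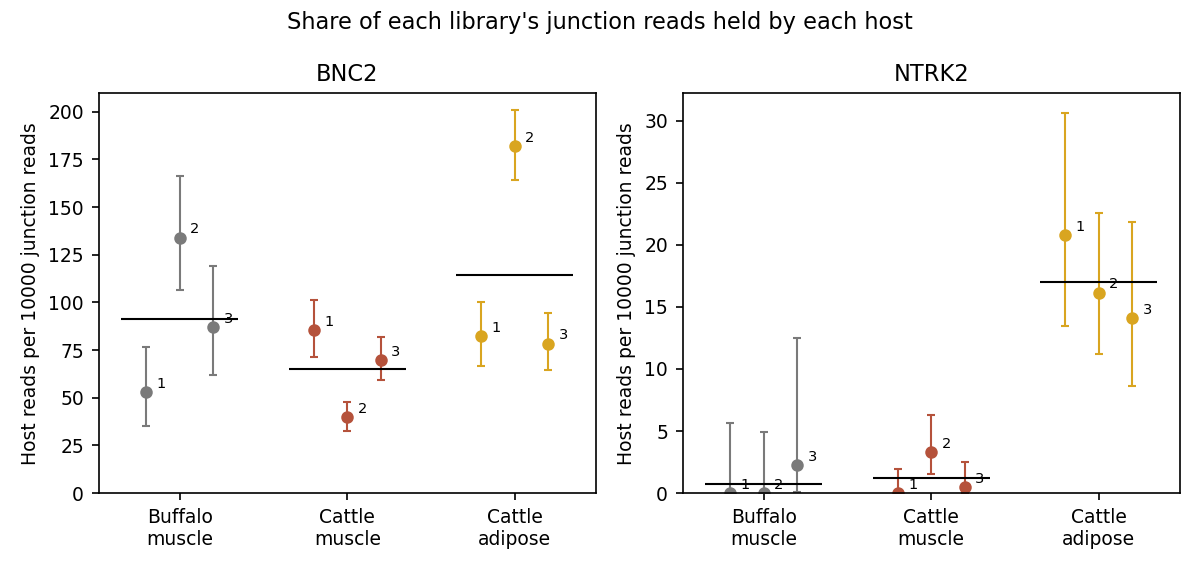
Junction reads of BNC2 (left) and NTRK2 (right) per 10000 junction reads of the same library, with exact 95% Poisson intervals (up to 3 reads where a library had none) and group means as lines. BNC2 of buffalo muscle spans 52.9 to 134 and overlaps with both cattle groups, while NTRK2 lies at 14.1 or above in adipose tissue and at 3.32 or below in all muscle libraries.

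The comparison of buffalo muscle with cattle muscle was not used to choose the hosts, and here BNC2 was tested. It had 28, 82 and 39 reads in buffalo muscle 1 to 3, which is 0.426, 1.29 and 0.650 RPM, or 52.9, 134 and 87.2 per 10000 junction reads. It ranked 15, 3 and 7 among 1214 to 1424 detected hosts. Buffalo 2 was the highest and buffalo 1 the lowest on both scales. Buffalo muscle held 91.3 ± 40.7 per 10000 and cattle muscle 65.0 ± 23.2 (SD, n = 3 each), and the groups overlapped. In limma on log2(per 10000 + 1), the difference of buffalo minus cattle was 0.45 with SE 0.52, a 95% interval of −0.76 to 1.66 and a Benjamini-Hochberg adjusted p of 0.586. Of the 1321 hosts tested, 18.3% passed this test, 53 higher and 189 lower in buffalo, and the median difference of all hosts was −0.45.

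The direction depended on the scaling. On log2(RPM + 1), BNC2 was lower in buffalo muscle by a difference of −1.32 (limma, adjusted p = 0.00583), the groups did not overlap, and mean RPM in cattle muscle was 4.37 times that of buffalo. On that scale 660 of the 1321 hosts passed the test, 655 of them (49.6%) lower in buffalo, and 69.8% had all buffalo libraries below all cattle libraries. The quasi-likelihood test of edgeR with TMM factors gave 0.09 (adjusted p = 0.882) and DESeq2 gave 0.08 (adjusted p = 0.894) on the recovered reads. Buffalo BNC2 was therefore lower relative to library size, as were nearly all hosts that passed, and no difference was detected within the junction reads.

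NTRK2 had 9 junctions, all on the plus strand in gene ENSBTAG00000010647 and annotated as exonic, and 6 of them were listed in both tables. The buffalo table lists 7, but only 1 had a read in buffalo muscle. The leading junction was chr8:79371027-79379127, 8101 bp, with 60 of its 67 reads from cattle adipose tissue. It had 16, 27 and 17 reads in adipose 1 to 3, 0, 5 and 1 in cattle muscle, and 0, 0 and 1 in buffalo muscle. Its start at position 79371027 was shared with chr8:79371027-79437974 (66948 bp), which had 3, 3 and 2 adipose reads and none in muscle, and with chr8:79371027-79405121 (34095 bp), which had 2, 2 and 0. Together, these 3 junctions held 79 of the 90 NTRK2 reads over the 9 libraries. The other 6 junctions had between 0 and 3 reads each.

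A pair of junctions lay apart from the rest of the gene's junctions. The longest, chr8:79564507-79665834 (101328 bp), was listed with transcript ENSBTAT00000061120 alone and had 3 reads, all in cattle muscle 2. The short chr8:79564507-79564695 shares its start, is listed in buffalo only and had no read in buffalo muscle. The remaining 7 junctions lay between 79371027 and 79437974 and were listed with both transcripts, ENSBTAT00000014097 and ENSBTAT00000061120.

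**Figure D3:**
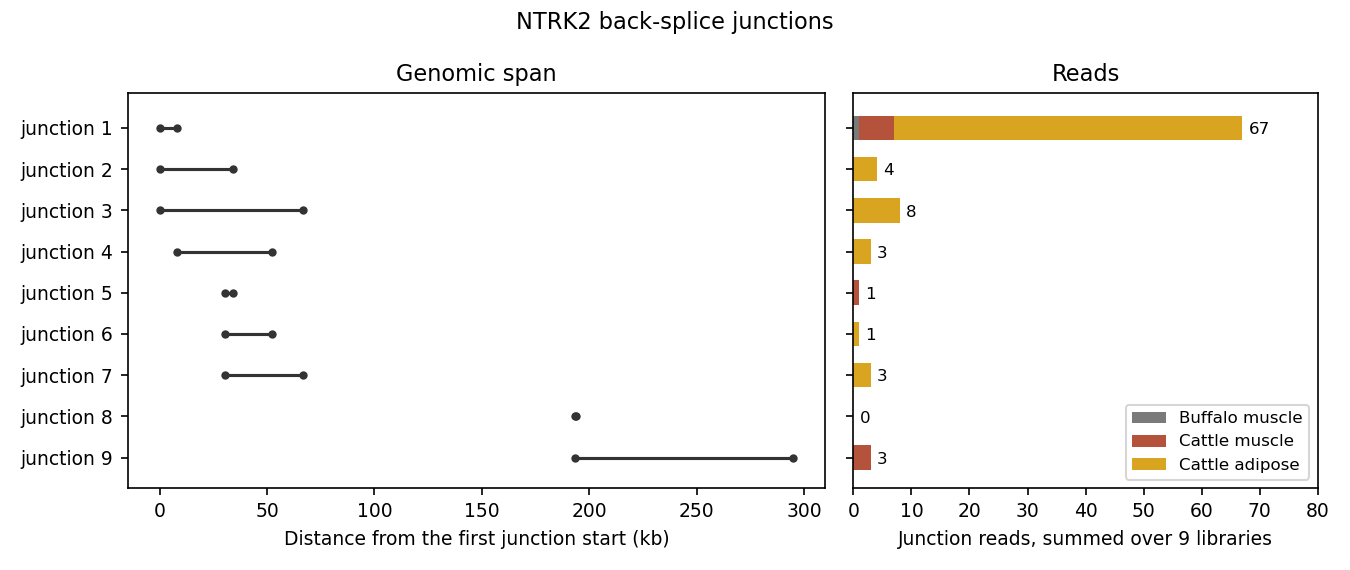
The 9 back-splice junctions of NTRK2, drawn as spans in kb from the first junction start (left), and their reads summed over 9 libraries and coloured by group (right). The leading junction holds 67 reads, 60 of them from cattle adipose tissue, and the junction with the longest span has 3 reads, all from cattle muscle.

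Within NTRK2, the leading junction held 64.0%, 79.4% and 85.0% of the host's reads in adipose 1 to 3, a mean of 76.1% ± 10.9 (SD, n = 3). In cattle muscle 2, the only muscle library with at least 5 reads of the host, it held 5 of 9 reads (55.6%). With 1 muscle library of sufficient depth, the share was not compared between tissues. Over all cattle libraries the leading junction held 74.2% of 89 reads. The 469 cattle hosts within 2-fold of this number, NTRK2 included, had a median of 8 junctions, the same number as NTRK2, and a median leading share of 49.0%.

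Summed over its junctions, NTRK2 had 25, 34 and 20 reads in cattle adipose 1 to 3, which is 0.679, 0.914 and 0.515 RPM. In cattle muscle it had 0, 9 and 1 reads, which is 0, 0.213 and 0.0280 RPM. The groups did not overlap, and muscle 2 was the only muscle library with more than 1 read. The 0 of muscle 1 allows up to 3 reads, or 0.0794 RPM, and like the other intervals on reads this covers counting error only. Mean RPM was 0.703 ± 0.201 in adipose tissue and 0.0803 ± 0.116 in muscle (SD, n = 3 each), a ratio of 8.75, and per 10000 junction reads the ratio was 13.5. The difference was 0.65 on log2(RPM + 1), a scale that understates the change of hosts with low values, and 3.27 on log2(per 10000 + 1). As background, 16 of the 1837 hosts tested by limma (0.871%) were called higher in adipose tissue, and in 8.27% all adipose libraries were above all muscle libraries. NTRK2 was chosen on this contrast, so nothing is read from its place among them.

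The size of the ratio rests on cattle muscle 2. With reads pooled per group, adipose RPM was 8.10 times that of muscle (exact 95% interval 4.18 to 17.6). Without muscle 2, only 1 muscle read was left and the ratio was 51.4 with an interval of 8.97 to 2057. Both intervals cover counting error of the pooled reads and leave out the spread between animals. NTRK2 was chosen on this contrast, so they are a description and no test of a difference. Muscle 2 was also the deepest muscle library with 27141 junction reads. Summed adipocyte markers were 0.529, 0.544 and 0.280 RPM in muscle 1 to 3, and 13.0, 8.47 and 4.57 per 10000 junction reads, where muscle 1 was highest. Their part in the NTRK2 reads was not tested.

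Of the 9 member junctions of the cattle table, 3 passed the minimum of 2 reads in 3 libraries, namely that of BNC2 and, for NTRK2, the leading junction and chr8:79371027-79437974. In this fit, 62 of 1917 junctions (3.23%) were called, 3 higher and 59 lower in adipose tissue. The other 6 junctions of NTRK2 had at most 4 reads each in cattle.

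In buffalo muscle, NTRK2 had 0, 0 and 1 reads, and in cattle muscle 10 reads in all. Pooled over libraries this is 0.629 per 10000 junction reads (exact 95% interval 0.0159 to 3.51) in buffalo and 1.55 (0.744 to 2.85) in cattle. At the cattle share, 2.46 reads would fall into the 15890 junction reads of buffalo muscle, so a lower share in buffalo was not detectable at this depth. NTRK2 failed the minimum of reads in this comparison. Without that minimum, limma on log2(per 10000 + 1) gave a difference of −0.32 with SE 0.69, a 95% interval of −1.94 to 1.30 and an adjusted p of 0.745. In cattle adipose tissue the pooled share was 16.7 (13.2 to 20.8). In the order of levels, NTRK2 was highest in cattle adipose tissue, and the values of both muscles overlapped. BNC2 per 10000 had no order of groups that held. By mean, adipose tissue was highest, then buffalo muscle, then cattle muscle, and neighbours overlapped. Without adipose 2, however, the adipose mean was 80.3, below the 91.3 of buffalo muscle, and on RPM buffalo muscle was lowest with a mean of 0.788.

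Junction positions were also compared between the species over all hosts. Of the 4737 junctions with a read in buffalo muscle, 2613 (55.2%) were listed in the cattle table at the same start and end. The BNC2 junction and the only NTRK2 junction with a buffalo muscle read were both among them.

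The linear transcripts could be followed in buffalo muscle, where the deposited mRNA table gives FPKM. BNC2 transcript ENSBTAT00000004780 stood at 24.2, 46.6 and 33.6 FPKM in animals 1 to 3, and ENSBTAT00000057275 was near 0, with a mean of 6.01e-06 FPKM. The animals were in the same order for this transcript as for the BNC2 junction, with animal 2 highest and animal 1 lowest, and 3 animals are too few for a correlation. The mean of 34.8 ± 11.3 FPKM (SD, n = 3) was at rank 2154 of 19917, above 89.2% of the listed transcripts. Reads inside the exons of the ring count towards FPKM too, so linear and circular molecules are not separated by this value.

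NTRK2 was low in the same libraries. Its transcript ENSBTAT00000014097 stood at 0.986, 1.13 and 1.80 FPKM (mean 1.30 ± 0.437, SD, n = 3), at rank 12091. The other transcript, ENSBTAT00000061120, stood at 0.180, 0.0812 and 0.422 FPKM (mean 0.228 ± 0.175), at rank 15039. All 3 values of BNC2 transcript ENSBTAT00000004780 lay above all values of both NTRK2 transcripts, on a scale that accounts for length, and the depth behind single FPKM values is unknown.

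**Figure D4:**
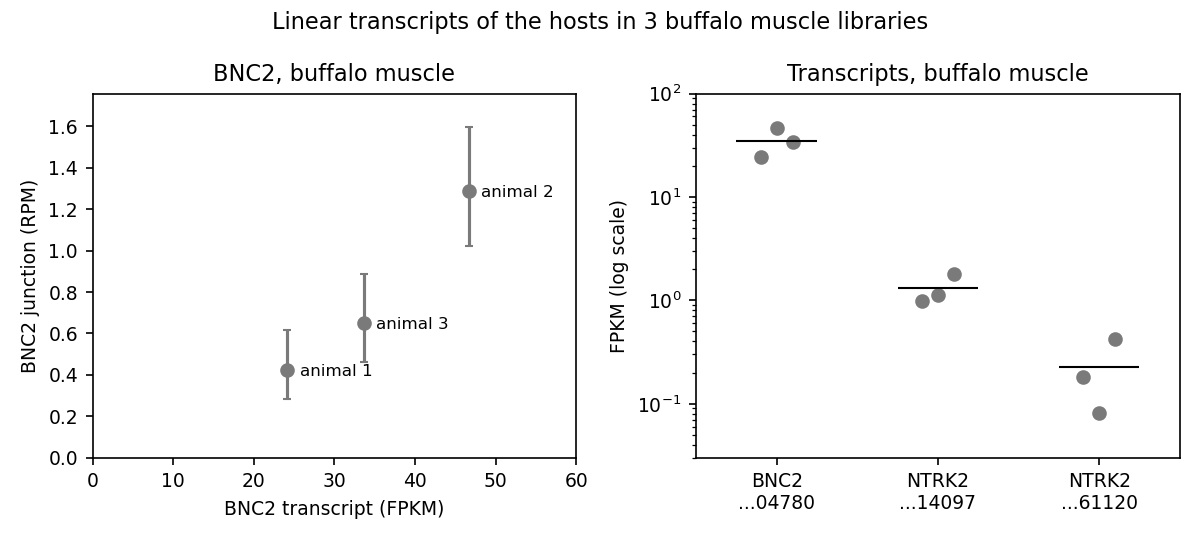
Left: BNC2 junction RPM, with exact 95% Poisson intervals, against FPKM of BNC2 transcript ENSBTAT00000004780 in 3 buffalo muscle libraries. Right: FPKM on a log axis of that transcript and both NTRK2 transcripts, points being libraries and lines means, with BNC2 at 34.8 FPKM and NTRK2 at 1.30 and 0.228 FPKM.

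The genes around NTRK2 in neurotrophin signalling were followed as hosts with a list of 64 genes. The neurotrophins BDNF, NTF3 and NTF4 had no junction read in any library. The related receptors NTRK3 and NGFR had no row in either table, nor did BNC1, the relative of BNC2. Of the 64 genes, 28 had a junction read in any library and 15 could be tested between cattle tissues. None was called by limma, edgeR or DESeq2, and 2, 1 and 1 of them had an unadjusted p below 0.05. Their median difference was 0.01 on log2(RPM + 1), beside −0.00 over all 1837 hosts tested. As shares of junction reads it was 0.50, beside 0.23 over all hosts, and limma called none. Per 10000 junction reads, the list summed to 98.0, 96.4 and 75.6 in adipose 1 to 3 and 55.1, 59.3 and 67.6 in cattle muscle. On RPM the sums overlapped, with 3.20, 5.46 and 2.76 in adipose tissue and 2.25, 3.81 and 4.14 in cattle muscle.

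Between buffalo and cattle muscle, 11 of the 64 genes could be tested as shares of junction reads. None was called by limma or DESeq2, with 4 and 2 at an unadjusted p below 0.05. The median difference was 0.10 in limma, beside −0.45 over all 1321 hosts. As linear transcripts in buffalo muscle, 28 genes of the list had a named transcript and 26 of them reached 1 FPKM. The adaptor CRKL stood at 79.1 ± 7.38 FPKM (SD, n = 3), RAPGEF1, an exchange factor for the small GTPase RAP1, at 77.2 ± 9.28 and PIK3R1, the regulatory subunit of PI3 kinase, at 72.9 ± 11.7, all far above NTRK2.

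BNC2 was set beside 36 other transcription factor genes of mesenchymal cells. Of these, 17 had a junction read and 8 could be tested between cattle tissues. None was called by limma, edgeR or DESeq2, with 2 at an unadjusted p below 0.05 in each of these tests, and their median difference was 0.07. With the share of junction reads, limma called EBF1, a factor of early B cells and fat cell precursors, higher in adipose tissue, beside 3.38% of all hosts. It had 11, 11 and 16 reads in adipose tissue and 4, 6 and 0 in cattle muscle. The summed RPM of the list was 1.52, 3.47 and 1.78 in adipose 1 to 3 and 1.35, 2.91 and 1.90 in cattle muscle, each time highest in library 2. BNC2 alone exceeded the sum of all 36 in each of the 9 libraries but cattle muscle 2.

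Between buffalo and cattle muscle, 7 of the 36 were tested, and NFIB and NFIX, transcription factors of the nuclear factor I family, were lower in buffalo, as were 14.3% of all hosts. NFIB had no read in the 3 buffalo libraries and 7, 14 and 7 in cattle muscle (limma on shares, difference −2.39, adjusted p = 0.0107). NFIX had 0, 0 and 3 reads in buffalo and 18, 58 and 31 in cattle (limma on shares, difference −3.04, adjusted p = 0.0428). The NFIX call was lost in 5 of the 6 fits with a library left out, all but that without buffalo 3, and the NFIB call in none of them, but DESeq2 did not call NFIB. Both were present as linear transcripts in buffalo muscle, with 45.2 ± 4.68 and 17.2 ± 2.53 FPKM for NFIB transcripts ENSBTAT00000039408 and ENSBTAT00000011234 and 191 ± 29.4 FPKM for NFIX (SD, n = 3).

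The lists of other cell types were compared in the same fits. Of the 5 adipocyte genes tested between cattle tissues, PPARG, the master regulator of fat cell formation, rose by 0.59 and ACACA, acetyl-CoA carboxylase of fatty acid synthesis, rose by 0.65 in adipose tissue (limma on log2(RPM + 1), adjusted p = 0.00672 and 0.0108, in 3 of 3 adipose libraries each), beside 0.871% of all hosts called higher, and edgeR and DESeq2 called both as well. The ACACA call was lost without adipose 3 or muscle 3. PPARG had 17, 23 and 22 reads in adipose tissue and 0, 0 and 3 in muscle. Of 6 fibroblast genes, LAMA2, a laminin chain of the basement membrane, fell by 0.64 (limma, adjusted p = 0.0377), beside 2.94% of all hosts called lower. This call was lost in 5 of the 6 fits with a library left out, all but that without muscle 1. The other 5 fibroblast genes went the other way by 0.00404 (PDGFRA) to 0.115 (COL5A1), and none of them was called. Of 5 muscle fibre genes, NEB fell by 4.33 and MYBPC1, a myosin-binding protein, fell by 3.38 in adipose tissue (adjusted p = 5.52e-06 and 1.48e-05). All 5 had an unadjusted p below 0.05 in limma. With edgeR and DESeq2 all 5 were called lower, beside 121 and 102 of the 1837 hosts. Schwann cell and nerve genes, which could mark the nerve fibres in which neurotrophin receptors are known, had reads for 3 of 13 genes and summed to 0, 0.161 and 0.0515 RPM in adipose tissue and 0, 0.118 and 0.0280 in cattle muscle. None of them passed the minimum of reads, and SOX10, a defining factor of Schwann cells, had no junction read. Without that minimum, limma called none of the 3 with reads and none had an unadjusted p below 0.05. The part of nerve fibres in the NTRK2 values was not tested. No vascular gene of 3 tested was called by limma, edgeR or DESeq2, and none had an unadjusted p below 0.05.

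Between buffalo and cattle muscle, 3 adipocyte, 2 fibroblast and 1 vascular gene could be tested as shares of junction reads. None was called by limma, edgeR or DESeq2, and limma gave 1, 1 and 0 of them an unadjusted p below 0.05. On RPM, however, limma called 2, 2 and 1 of them lower in buffalo, beside 49.6% of all hosts. With a pseudocount of 0.1 on shares, GPAM and COL5A1 were called lower, beside 205 of the 1321 hosts. Of 6 muscle fibre genes, NEB, the calcium release channel RYR1 and the calcium pump ATP2A1 were called higher in buffalo, beside 4.01% of all hosts (limma, differences 1.89, 1.52 and 2.69, adjusted p = 0.0193, 0.0431 and 0.0179). On RPM none of these was called higher and NEB was called lower. ATP2A1 had between 0.173 and 0.274 RPM in buffalo muscle and between 0.106 and 0.392 in cattle muscle, which overlapped. The RYR1 call was lost in all 6 fits with a library left out and with edgeR and DESeq2, and the ATP2A1 call without cattle muscle 1 or 2.

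The hosts whose pattern was most like BNC2 and NTRK2 were ranked by Pearson's r of log2(RPM + 1) over the 9 libraries among 935 hosts with at least 30 reads. For BNC2 these were the histone acetyltransferase KAT2B (r = 0.979), the RAC exchange factor PREX2 (0.975), the RNA-binding protein RBM6 (0.969), the stress sensor of the endoplasmic reticulum ATF6 (0.967) and the GTPase-activating protein ARHGAP29 (0.965). All were highest in adipose 2 and lowest in the 3 buffalo libraries. PREX2, the most abundant of them, had 0.733, 1.99 and 0.798 RPM in adipose tissue, 0.820, 0.521 and 0.700 in cattle muscle and 0.0304, 0.141 and 0.0333 in buffalo muscle. Over the 6 cattle libraries alone, RBM6 stayed among the 5 nearest hosts of BNC2, and the nearest was SUZ12, a subunit of the Polycomb complex (r = 0.988).

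For NTRK2 the nearest hosts were the secreted protease ADAMTS16 (r = 0.979), ACACA (0.973), the peroxisomal protease LONP2 (0.970), the laminin chain LAMA4 (0.969) and the GTPase-activating protein ARHGAP28 (0.969). ADAMTS16 had 0.489, 0.726 and 0.592 RPM in adipose tissue, 0, 0.118 and 0.0280 in cattle muscle, and 0, 0.0157 and 0 in buffalo muscle. ACACA had 0.461, 0.780 and 0.541 RPM in adipose tissue and a value above 0 in 1 muscle library only, cattle muscle 2, which also held 9 of the 10 cattle muscle reads of NTRK2. Over the 6 cattle libraries, ADAMTS16, ACACA and LONP2 stayed among the 5 nearest. The points share library depth and the low RPM sums of the buffalo libraries, so these coefficients are a description and no p is given.

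**Figure D5:**
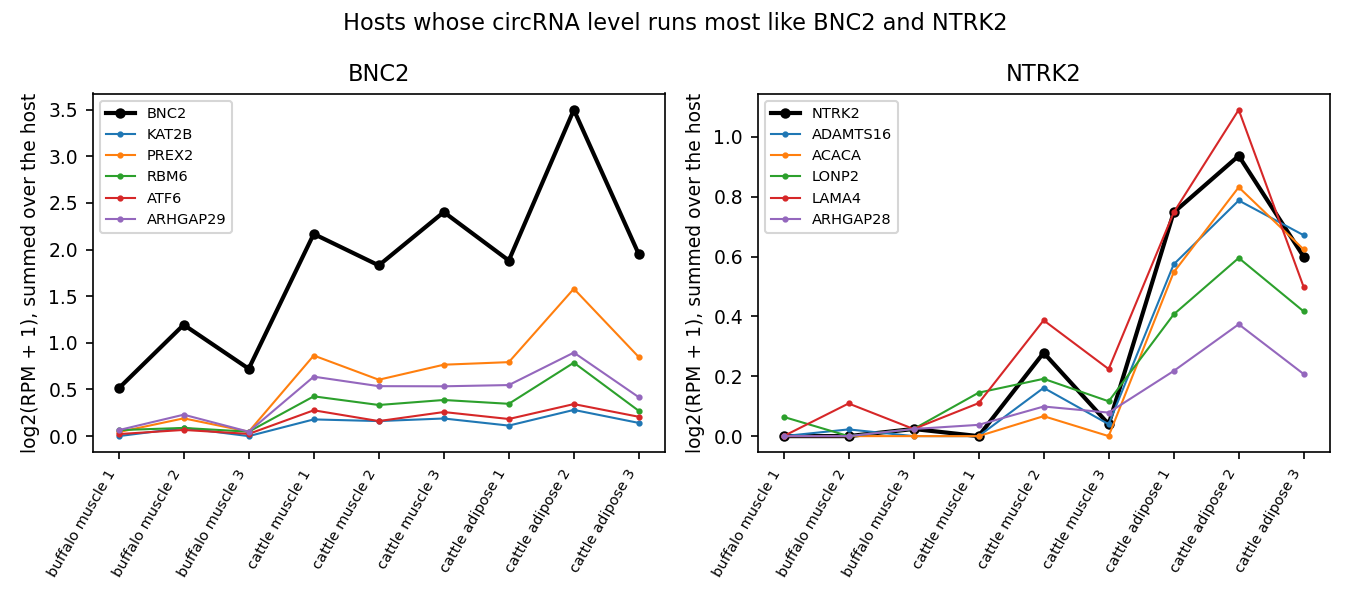
log2(RPM + 1) of BNC2 (left) and NTRK2 (right), in black, and of the 5 hosts nearest to each by Pearson's r, in the 9 libraries. BNC2 and its neighbours peak in adipose 2 (3.50 for BNC2), while NTRK2 and its neighbours are low in all muscle libraries, with a rise in cattle muscle 2 (0.28 for NTRK2).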

How the data were processed

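The authors used Trim Galore for trimming, STAR for alignment (cattle genome UMD3.1 also for buffalo), Cufflinks 2.2.1 for assembly and Cuffdiff for FPKM values. The deposited mRNA table holds linear FPKM. The deposited circRNA tables hold RPM per back-splice junction, and the circRNA caller is not given in the sources used here. The kit for libraries was TruSeq RNA LT v2, and no step that enriches circRNAs is described. All values above 0 were whole multiples of 1 read (100%, tolerance 0.01 reads). The 6 columns of buffalo adipose tissue in the tables used belong to no sample used here and were left out, as was the lncRNA table.

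RPM and reads were summed per host symbol. The 6 cattle libraries were compared with limma 3.58.1 (R 4.3.3) on log2(RPM + 1), and buffalo with cattle muscle on log2(reads per 10000 junction reads + 1), over features with at least 2 reads in at least 3 of 6 libraries, and calls needed a Benjamini-Hochberg adjusted p below 0.05. RPM is not a count, so edgeR 4.0.16 and DESeq2 1.42.0 on recovered reads were alternatives. Other alternatives were a pseudocount of 0.1, no minimum of reads, a minimum of 5, the other scaling, a replicate block and each library left out. The fits were tested on simulated data. Intervals of reads are exact Poisson, and that of the pooled ratio is exact binomial (Clopper-Pearson), computed with scipy 1.17.1.

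Named were both hosts, their junctions with at least 5 reads (others where they share a start or lie apart, chosen after their values were seen), the paralogs, the 5 nearest hosts, and up to 4 called genes of each list in each direction. Some genes of the lists are not reported here. The members and lists were chosen with earlier results of these data known. No sequence was read, since no genome of UMD3.1 was used here.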

Additional observations from a re-analysis of the deposited data

How the results depend on the processing

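BNC2 between cattle tissues kept its direction under 10 of 11 alternatives. Over libraries left out in turn, the log2 difference ran from −0.22 (without adipose 2) to 0.59, and with the other settings from 0.31 to 0.76. BNC2 between buffalo and cattle muscle (0.45) turned to −1.32 on RPM as deposited, and the cause was not tested. Over libraries left out it ran from 0.13 to 0.79. NTRK2 between cattle tissues (0.65) was 2.31 with a pseudocount of 0.1, 3.27 as a share of junction reads, 3.03 with edgeR and 3.18 with DESeq2, all in the same direction, and 0.57 to 0.74 over libraries left out. NTRK2 between buffalo and cattle muscle (−0.32, 11 reads in all, below the minimum of reads) was −0.32 with no minimum of reads (limma, adjusted p = 0.745), −1.52 with edgeR and −1.36 with DESeq2, and −0.88 to 0.29 over libraries left out, with the sign turned without cattle muscle 2. The leading junction share of NTRK2 in adipose tissue was 71.7% to 82.2% with a library left out.

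The number of junctions called between cattle tissues (62) was 123 with a pseudocount of 0.1, 36 with no minimum of reads, 134 as shares, 163 with edgeR, 129 with DESeq2 and 24 to 70 with a library left out. For hosts (70) these numbers were 126, 35, 136, 161, 134 and 17 to 64. As shares, 62 of the 136 hosts were higher in adipose tissue, against 16 of 70, and the median of all hosts moved to 0.23. Hosts called between buffalo and cattle muscle (242) numbered 158 with at least 5 reads, 660 on RPM (5 higher, 655 lower; median of all hosts −0.18), 131 with DESeq2 and 88 to 186 with a library left out.

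The replicate block gave 86 junctions and 69 hosts between cattle tissues and 121 hosts between buffalo and cattle muscle. Deviations of libraries with equal numbers correlated at 0.21, 0.18 and −0.02 between cattle tissues and at −0.02, −0.02 and 0.07 between species. Unequal numbers gave −0.22 to 0.05 between cattle tissues, below the 0.21 and 0.18, and −0.06 to 0.07 between species. These values do not settle whether equal numbers mean the same animal in cattle. The numbers were not taken as pairs, since no source used here states a pairing. The differences of BNC2 and NTRK2 stay the same in the block, since the design is balanced (0.31, 0.65, 0.45 and −0.32), and the adjusted p of BNC2 between species was 0.652. Among the lists, the block added NFIX as lower in adipose tissue, and between species NEB and RYR1 were no longer called.

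With 3 libraries a group, 33.7% to 61.9% of detected junctions had 1 read, which limits NTRK2 far more than BNC2. The comparison of junction shares between cattle tissues was not run, since BNC2 has 1 junction and NTRK2 had at least 5 reads in 1 muscle library only.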
